A study of Mus musculus with 6 samples.

Results

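The genes described here are 8 transcription factors and regulators that carry the output of the circadian clock. They are the PAR-bZIP factors Dbp, Tef and Hlf, their antagonist Nfil3, the DEC repressors Bhlhe40 and Bhlhe41, the nuclear receptor Rora and the CLOCK-BMAL1 repressor Ciart. They were taken by symbol from a list drawn up with earlier results of these data known, and all 8 were found among the 55487 genes of the count tables. The libraries came from primary cortical microglia of CAG::CreERT2; Nr1d1 fl/fl pups at postnatal day 1 to 3, and 3 Cre- libraries were compared with 3 Cre+ libraries. Both groups carried the floxed Nr1d1 alleles and both received 4-hydroxytamoxifen (4-OHT) at 1.5 μM for 2 days by the labels (the methods give a shorter exposure for this line), so that REV-ERBα, the product of Nr1d1, was to be deleted in Cre+ cells only. The CAG promoter drives CreERT2 broadly, so any non-microglial cell left in a culture could also have recombined. The cells had been shaken off mixed glial cultures grown with GM-CSF. No clock time of harvest and no synchronization of the cultures is given in the sources used here.

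In the clock, CLOCK and BMAL1 activate genes through E-box elements, and among these genes are the DECs, the PAR-bZIP factors, Ciart and the REV-ERBs. The PAR-bZIP factors in turn activate genes through D-box elements, where NFIL3 represses. RORα activates genes through ROR response elements (ROREs), which REV-ERBα occupies as a repressor, and Nfil3 and Bmal1 are textbook genes of this kind. In macrophages and microglia the DECs and NFIL3 are also known as regulators of immune and metabolic genes.

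The Cre- libraries held 87545868 to 93942161 reads on genes and the Cre+ libraries 93701215 to 110909129. Of the 12 microglia markers listed, 10 were above 1 CPM (reads per 1000000 reads on genes) in at least 4 libraries, with P2ry12 and Sall1 below, and their summed level was 3582 to 3618 CPM in Cre- and 3614 to 3745 CPM in Cre+ libraries. Markers of other cell types summed to less, at 11.4 to 14.99 CPM for 7 astrocyte genes, mostly Aldh1l1, and 70.5 to 83.5 CPM for 8 genes of the oligodendrocyte lineage. The 6 endothelial genes summed to 20.9 to 22.9 CPM in Cre- and 24.4 to 27.9 CPM in Cre+ libraries, a rise of Flt1 alone (20.1 to 25.2 CPM; edgeR, adjusted p = 0.025), while the means of the other genes of that list were lower in Cre+. All 6 neuron markers and all 8 markers of fibroblasts and mural cells were below the filter, but both sums were lower in every Cre+ library. The neuron markers summed to 2.88 to 3.77 CPM in Cre- and 2.05 to 2.14 CPM in Cre+ libraries, and the fibroblast and mural markers to 1.84 to 2.83 CPM and 0.972 to 1.23 CPM. Gene by gene, every Cre+ library lay under the Cre- range for 3 of 7 astrocyte, 3 of 8 oligodendrocyte lineage, 3 of 6 neuron, 5 of 8 fibroblast and mural and 1 of 6 endothelial markers, and for none of the 12 microglia markers. Over all genes tested, the groups did not overlap, in either direction, for 24.0%. Most markers of the other cell types were below the filter, and no such share was computed for genes at that level. In bulk RNA, fewer cells of a type cannot be told apart from less RNA per cell. The targeted gene Nr1d1 stood at 2.35, 1.20 and 1.64 CPM in Cre- cultures, and Cre+ cultures gave 1.00, 0.945 and 1.08 CPM. Its log2 fold change of -0.77 did not pass the threshold (edgeR, adjusted p = 0.094), and its counts include exons outside the deleted part.

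Sequence before the transcription start was held for 7 of the 8 genes in the RefSeq table of the GRCm38.p6 build, with 2 starts for Tef. Bhlhe40 had no entry. The 250 bases before each start were searched on both strands for the E-box CACGTG, which is its own reverse complement. Tef (before both starts), Bhlhe41 and Ciart each held at least 1. Counted by window and not by gene, 6.02% of all 32851 windows of this length in the table did. The 8 genes were listed as driven by E-box, D-box or RORE elements, so these matches are not independent evidence. The part of these windows that lies outside annotated exons is shown for the 3 genes, 5′ to 3′ on the strand of the gene and with each E-box in capitals, since the E-box is the element that ties these genes to CLOCK and BMAL1. Ciart held 3 E-boxes, which began 116, 58 and 44 bases before the start (chr3:95882252-95882478, minus strand). Bhlhe41 held 1, which began 153 bases before the start (chr6:145865559-145865670, minus strand). The second start of Tef held 1, which began 138 bases before it (chr15:81811164-81811413, plus strand).
Ciart: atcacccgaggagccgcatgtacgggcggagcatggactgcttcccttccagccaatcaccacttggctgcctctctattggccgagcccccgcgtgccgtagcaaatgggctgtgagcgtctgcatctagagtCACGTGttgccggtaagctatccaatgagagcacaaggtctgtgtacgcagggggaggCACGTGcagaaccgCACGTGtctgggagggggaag
Bhlhe41: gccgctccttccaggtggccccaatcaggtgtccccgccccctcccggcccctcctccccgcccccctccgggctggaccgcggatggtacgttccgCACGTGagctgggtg
Tef, second start: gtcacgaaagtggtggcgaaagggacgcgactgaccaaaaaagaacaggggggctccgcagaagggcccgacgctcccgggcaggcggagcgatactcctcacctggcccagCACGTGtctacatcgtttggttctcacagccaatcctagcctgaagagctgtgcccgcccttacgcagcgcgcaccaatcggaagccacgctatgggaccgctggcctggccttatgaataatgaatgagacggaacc

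The core of a RORE, searched as TAGGTCA or TGGGTCA on both strands, was found for 1 of the 7 genes, Nfil3, and in 5.38% of all windows. It began 12 bases before the RefSeq start, inside the first exon of Nfil3 in the GENCODE annotation, and on the strand of the gene it reads as the reverse complement of TAGGTCA, shown in capitals (chr13:52981035-52981061, minus strand).
Nfil3: cgctcggaacTGACCTActaacacaca
A D-box, searched as TTANGTAA, was in none of these windows for the 7 genes and in 2.06% of all windows. These matches are letters in a window of 250 bases, in genes listed as driven by such elements, and binding was not measured.

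Of the 8 genes, 6 were above 1 CPM in at least 4 libraries and could be tested with the 11429 genes that passed this filter. With edgeR's quasi-likelihood test and a threshold of 0.05 on the adjusted p-value, none of the 6 was called, against 5.07% of all genes tested, made up of 2.50% that rose and 2.56% that fell, and none of the 6 had an unadjusted p-value of at most 0.05, against 19.1% of all genes. DESeq2 and limma also called none of them. Of the 6 log2 fold changes 3 were above and 3 below 0, and their median was -0.0044, against 0.0023 over all genes tested. At a background of 5.07%, a count of 0 in 6 genes does not set them apart. The intervals of the fold changes were narrow for the abundant genes and wide for the scarce ones, and they are given below gene by gene.

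**Figure D1:**
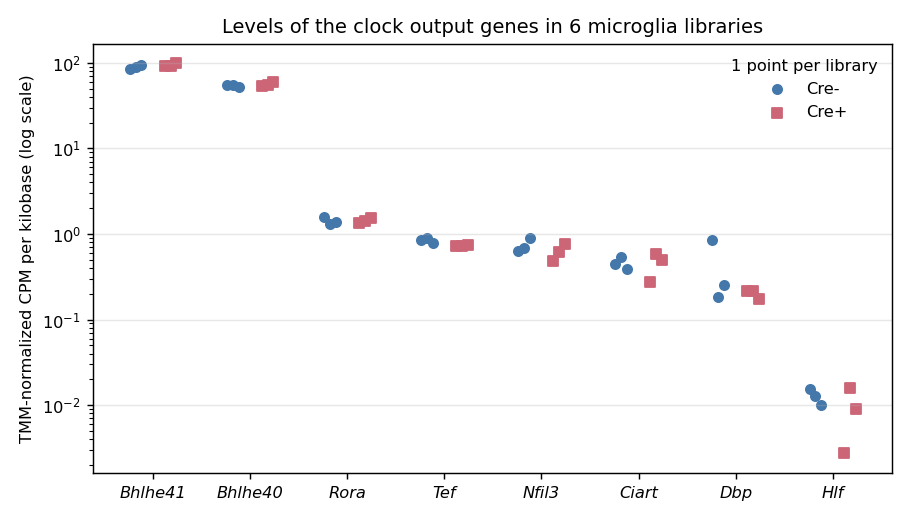
TMM-normalized CPM per kilobase of exon length, on a log scale, for the 8 genes in each of the 6 libraries, with circles for Cre- and squares for Cre+. Bhlhe41 and Bhlhe40 lie near 92 and 55, the next gene, Rora, near 1.44, and Hlf near 0.011.

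Per kilobase of annotated exon length, the 8 genes spanned nearly 4 orders of magnitude. This length covers all annotated exons of a gene (13071 bases for Rora), whichever isoforms were expressed. Averaged over the 6 libraries, Bhlhe41 stood at 91.6 CPM per kilobase and Bhlhe40 at 54.9, ranks 499 and 803 of the 11429 genes tested. Rora followed at 1.44, Tef at 0.787, Nfil3 at 0.675, Ciart at 0.455, Dbp at 0.317 and Hlf at 0.0110. The ranges over the libraries did not overlap between Bhlhe41 and Bhlhe40, between Bhlhe40 and Rora, between Rora and Tef, or between Dbp and Hlf. They did overlap between Tef and Nfil3, Nfil3 and Ciart, and Ciart and Dbp, and Dbp also overlapped with Tef and with Nfil3. Of the pairs among these 4 genes, Tef and Ciart were the one without overlap, at 0.730 to 0.894 and 0.274 to 0.589. The step from Bhlhe40 to Rora was the largest in the order, at 38.2-fold.

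Bhlhe40 (DEC1; ENSMUSG00000030103, chromosome 6 of GRCm38 from 108660629 to 108666925) encodes a basic helix-loop-helix protein that binds E-boxes and represses there. On TMM-normalized library sizes, replicates 1 to 3 stood at 258, 257 and 242 CPM for Cre- and at 252, 258 and 282 CPM for Cre+. The groups overlapped, with Cre+ replicate 3 the highest. The log2 fold change was 0.06 (standard error 0.05, 95% interval -0.04 to 0.17, edgeR, adjusted p = 0.54). On the linear scale this interval runs from 0.971 to 1.13 of the Cre- level. Without Cre+ replicate 3 the log2 fold change was 0.015, and without Cre- replicate 3 it was 0.033.

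Bhlhe41 (DEC2; ENSMUSG00000030256, chromosome 6 from 145858243 to 145865558) is the paralog of Bhlhe40 and represses through the same element. Its level was 564, 602 and 638 CPM without Cre and 615, 617 and 659 CPM with Cre. The lowest library was Cre- replicate 1 and the highest Cre+ replicate 3, and the groups overlapped. The log2 fold change was 0.07 (standard error 0.05, 95% interval -0.04 to 0.17, adjusted p = 0.49 from edgeR's test), or 0.976 to 1.13 of the Cre- level on the linear scale. It was 0.020 without Cre- replicate 1, 0.036 without Cre+ replicate 3 and 0.11 without Cre- replicate 3. Both DECs were counted so deeply, with at least 21636 reads per library, that counting error was at most 0.680%, and their coefficients of variation between cultures were 3.61% to 6.22%. A gene on the other strand, Gm43909, shares 1280 exon bases with Bhlhe41 but had at most 5 counts in any library. Per kilobase, Bhlhe41 exceeded Bhlhe40 by 1.67 ± 0.162 times in Cre- and by 1.67 ± 0.0342 times in Cre+ cultures (SD, n = 3 each), and the ratio did not separate the groups (exact 2-sided permutation test, p = 1). The DECs together stood 1.80 ± 0.0415 times above the sum of 17 other E-box-binding factors listed in Cre- cultures and 1.84 ± 0.0457 times in Cre+ cultures (SD, n = 3 each), on the same scale.

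**Figure D2:**
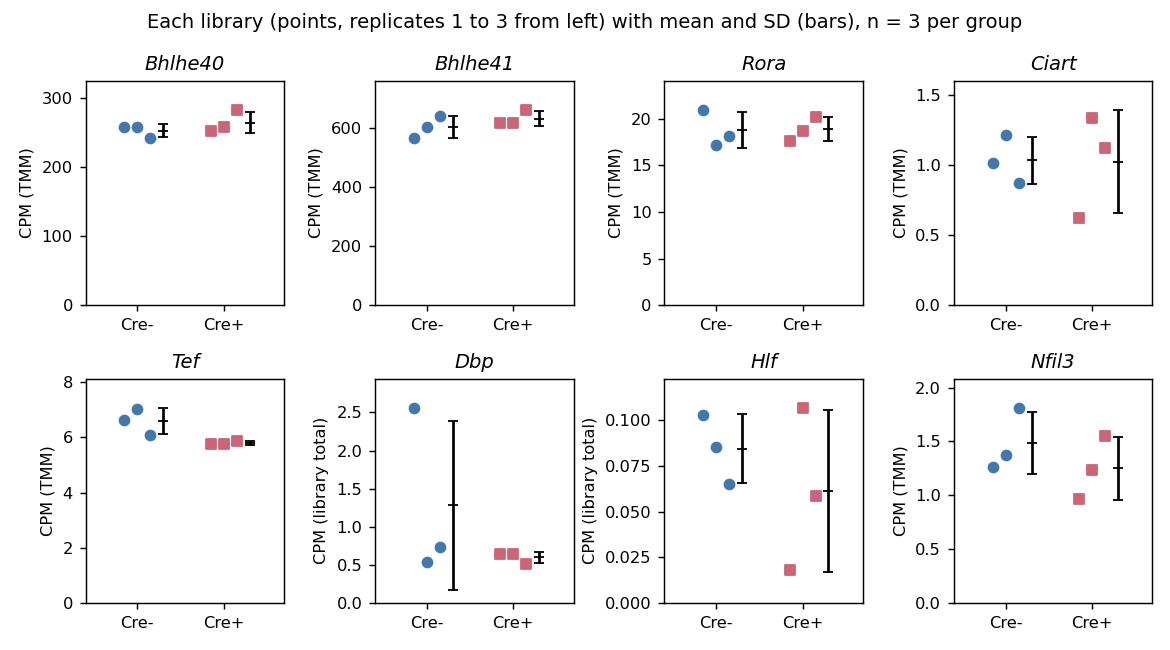
CPM of each gene in the 6 libraries, with points for replicates 1 to 3 of Cre- (circles) and Cre+ (squares) and bars for the mean and SD, on TMM-normalized library sizes or, for Dbp and Hlf, on library totals. The groups overlap for every gene but Tef, and for Dbp the single high point is Cre- replicate 1, at 2.56 CPM.

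Rora (ENSMUSG00000032238, chromosome 9 from 68653786 to 69388246) encodes the nuclear receptor that activates at the elements REV-ERBα represses. Its level was 20.9, 17.2 and 18.1 CPM without Cre and 17.6, 18.7 and 20.2 CPM with Cre. The values of the groups lay within each other, and Cre- replicate 1 was the highest of all. For Rora the log2 fold change was 0.01 (standard error 0.09, 95% interval -0.19 to 0.21, adjusted p = 0.98 from edgeR's test). Per kilobase, Rora was at 0.969 ± 0.0581 times the sum of Nr1d1 and Nr1d2 in Cre- cultures and at 1.07 ± 0.246 times in Cre+ cultures (SD, n = 3 each; exact 2-sided permutation test, p = 0.7). Cre+ replicate 3 had the highest ratio, at 1.34 on this scale, and Cre+ replicate 1 the lowest, at 0.865.

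Rorb, a paralog of Rora, was too scarce for the test. It had 68, 50 and 46 reads without Cre and 33, 15 and 14 reads with Cre, and the groups did not overlap. The ratio of its group means was -1.60 on the log2 scale (exact 2-sided permutation test, p = 0.1, the smallest that 3 libraries against 3 allow), and without the filter on low counts its adjusted p-value was 0.056 from edgeR's test. Rorb was lower in the libraries in which the neuron, fibroblast and mural sums and some astrocyte and oligodendrocyte lineage markers were lower, and the part of those cells in its counts was not tested.

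Tef (ENSMUSG00000022389, chromosome 15 from 81802421 to 81826863) had the highest mean level of the PAR-bZIP genes, but per kilobase its range overlapped with that of Dbp. The ratio of Tef to Dbp on that scale was 2.96 ± 1.94 in Cre- and 3.70 ± 0.551 in Cre+ cultures (SD, n = 3 each; exact 2-sided permutation test, p = 0.7), and in Cre- replicate 1 it was 0.982. These factors activate D-box genes as dimers and are known for control of detoxification and of vitamin B6 metabolism. The level of Tef was 6.65, 7.04 and 6.09 CPM without Cre and 5.75, 5.75 and 5.88 CPM with Cre. The highest Cre+ value was below the lowest Cre- value, so Tef was 1 of 6 genes whose groups did not overlap, against 24.0% of all genes tested. The Cre+ libraries were also closer to each other, with a coefficient of variation of 1.34% against 7.19%, the former below the counting error of up to 4.32%. The log2 fold change was -0.19 (standard error 0.12, 95% interval -0.45 to 0.08, adjusted p = 0.46 from edgeR's test).

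Dbp (ENSMUSG00000059824, chromosome 7 from 45705088 to 45710203) is usually among the most strongly rhythmic clock output genes. It was below the filter, and 1 library stood apart. Dbp had 224, 51 and 68 reads in Cre- replicates 1 to 3, and 71, 60 and 52 reads in Cre+ replicates 1 to 3. On library totals these are 2.56, 0.543 and 0.737 CPM against 0.640, 0.640 and 0.508 CPM. The other 2 Cre- libraries and the 3 Cre+ libraries covered one narrow range, and Cre- replicate 1 was 3.47 times the highest of them. The ratio of the group means was -1.10 on the log2 scale (exact 2-sided permutation test, p = 0.4), and without Cre- replicate 1 it was -0.10. In fits that admitted genes of this level the adjusted p-value was 0.19 with edgeR's filterByExpr, which called 4.22% of its genes, and 0.058 without a filter, which called 3.49%, both from edgeR's test.

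The high count of Dbp in Cre- replicate 1 was seldom matched and was not shared by its neighbour. Among 2792 genes that averaged 0.5 to 2 CPM, 6 had a highest library at least 3 times the second highest, Dbp among them, and 2 of the 6 had their highest value in Cre- replicate 1. This comparison was chosen after the values of Dbp were seen. Sphk2, a sphingosine kinase gene on the other strand that shares 539 exon bases with Dbp, had 4024, 4548 and 3758 reads without Cre and 4989, 3989 and 4969 reads with Cre, so its count was not high in Cre- replicate 1. Among the clock genes, that library also had the highest Nr1d1, at 1.65 times the mean of the other Cre- libraries. The same ratio was 1.23 for Per1, 1.20 for Per3, 1.01 for Tef, 0.971 for Ciart, 0.821 for Arntl, which encodes BMAL1, and 0.806 for Nr1d2, on TMM-normalized library sizes. The cause was not tested.

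Hlf (ENSMUSG00000003949, chromosome 11 from 90336536 to 90390895), the third PAR-bZIP gene, was near the limit of detection. It had 9, 8 and 6 reads without Cre and 2, 10 and 6 reads with Cre. The groups overlapped (exact 2-sided permutation test, p = 0.5), and at this depth a difference was not detectable.

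Nfil3 (E4BP4; ENSMUSG00000056749, chromosome 13 from 52967209 to 52981073) encodes the bZIP protein that represses at D-boxes, and it is itself a gene that REV-ERBα represses in other tissues. Its level was 1.27, 1.38 and 1.81 CPM without Cre and 0.967, 1.24 and 1.55 CPM with Cre. The groups overlapped, and the mean was lower in Cre+ cultures, at 1.25 ± 0.290 CPM against 1.48 ± 0.289 CPM (SD, n = 3 each). Its log2 fold change was -0.25 (standard error 0.24, 95% interval -0.76 to 0.26, adjusted p = 0.63 from edgeR's test). On the linear scale the upper bound is 1.20 times the Cre- level. The estimate depended on single libraries, at -0.08 without Cre- replicate 3, -0.09 without Cre+ replicate 1 and -0.43 without Cre+ replicate 3. The PAR-bZIP genes together, per kilobase, stood at 1.84 ± 0.823 times Nfil3 in Cre- cultures and at 1.59 ± 0.387 times in Cre+ cultures (SD, n = 3 each; exact 2-sided permutation test, p = 0.8). The highest ratio, 2.76, was that of Cre- replicate 1. In all 5 such ratios were computed, and each had a Benjamini-Hochberg adjusted p of 1 in the exact permutation test.

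**Figure D3:**
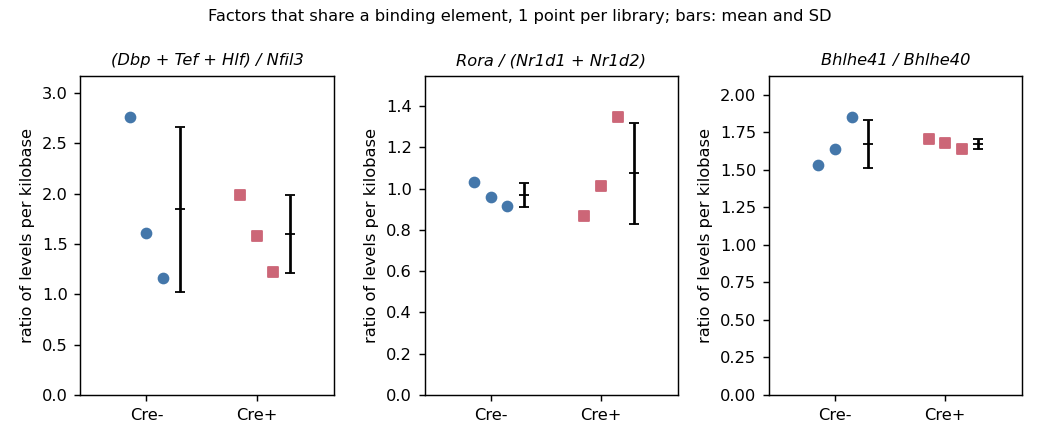
Ratios of levels per kilobase in each library, for the PAR-bZIP genes over Nfil3, Rora over the REV-ERB genes and Bhlhe41 over Bhlhe40, with bars for the mean and SD of 3 libraries. The Cre- and Cre+ libraries overlap in all 3 ratios, and Cre- replicate 1 is highest in the first at 2.76.

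Ciart (CHRONO; ENSMUSG00000038550, chromosome 3 from 95878503 to 95882251) encodes a repressor of CLOCK and BMAL1. Its level was 1.01, 1.21 and 0.872 CPM without Cre and 0.620, 1.33 and 1.12 CPM with Cre. Both the lowest and the highest library were Cre+. Its log2 fold change was -0.02 (standard error 0.28, 95% interval -0.61 to 0.57, adjusted p = 0.98 from edgeR's test), an interval from 0.657 to 1.49 of the Cre- level.

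The genes around these factors were taken as 9 lists of 58 genes in all, of which 47 were tested. Of these 7 (14.9%) passed the threshold, 5 higher and 2 lower in Cre+ cells, against 5.07% of all genes tested, with a median log2 fold change of -0.03 against 0.00. These lists were chosen with earlier results of these data known, so the share is not independent evidence. None of the 7 E-box-driven clock genes, 3 RORE-driven clock genes and 5 D-box-driven clock genes tested was called. Nr1d1 and Per2, a repressor of CLOCK and BMAL1, had the smallest p-values of the E-box list and again of the D-box list, and the estimate for Per2 was 0.55 ± 0.23 (log2, SE; edgeR, adjusted p = 0.20). Clock and Arntl, the RORE-driven genes with the smallest p-values, had log2 fold changes of 0.14 and 0.08 (adjusted p = 0.54 and 0.87 from edgeR's test).

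Among 5 genes known as PAR-bZIP targets, 3 were tested and 2 were called, both higher in Cre+ cells. Over all genes tested, 2.50% were called higher. This list too was chosen with earlier results of these data known, so the count is not independent evidence. Pdxk, pyridoxal kinase of the vitamin B6 pathway, rose from 29.3 ± 1.69 CPM to 38.0 ± 3.93 CPM (SD, n = 3 each), or by 0.37 ± 0.08 (log2, SE; edgeR, adjusted p = 0.013). Alas1, the first enzyme of heme synthesis, rose from 1596 ± 70.7 CPM to 1848 ± 68.9 CPM, or by 0.21 ± 0.04 (log2, SE; edgeR, adjusted p = 0.0083). Por, the electron donor of cytochrome P450 enzymes, was not called (0.02 on the log2 scale), and Nr1i3 and Ppara were below the filter. Pdxk was not called without Cre- replicate 1 (log2 fold change 0.32) or without Cre+ replicate 3 (0.28), whereas Alas1 was called in all 16 alternative fits.

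Of 10 C/EBP and related bZIP genes, 8 were tested and 1 was called. Over all genes tested 5.07% were called, the share to set beside this list and those that follow. Cebpa, a regulator of myeloid differentiation, fell from 44.9 ± 6.98 CPM to 32.2 ± 1.39 CPM (SD, n = 3 each), with a log2 change of -0.48 ± 0.09 (SE; edgeR, adjusted p = 0.0056), and was called in all 16 alternative fits. Among 16 other E-box-binding factors tested, Myc, a growth regulator, rose by 0.31 and Tcf12, an E-protein, fell by 0.41 in log2 units (edgeR, adjusted p = 0.031 and 0.015). Of 9 clock kinases and ubiquitin ligases tested, the kinase genes Csnk2a1 and Gsk3b were called, with log2 fold changes of 0.29 and 0.21 (adjusted p = 0.037 and 0.039 from edgeR's test). These 4 calls were each lost in several of the fits that left out 1 library, with the sign of the estimate unchanged. Over the whole table the number of genes called also fell in such fits, from 579 to 321 to 435. Without Cre- replicate 1 or 2 or without Cre+ replicate 2 or 3, Myc (0.26 to 0.31) and Csnk2a1 (0.22 to 0.28) were not called. Tcf12 (-0.38 to -0.34) was not called without Cre- replicate 1 or without Cre+ replicate 2 or 3, and Gsk3b (0.15 to 0.23) was called in 1 of the 6 leave-one-out fits, that without Cre+ replicate 2. Among genes that NFIL3 or BHLHE40 represses in immune cells, the cytokine genes Il10 and Il12b were below the filter. Maf, which encodes a bZIP factor, stood at 0.20 on the log2 scale (edgeR, adjusted p = 0.38), and no gene of this list was called.

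**Figure D4:**
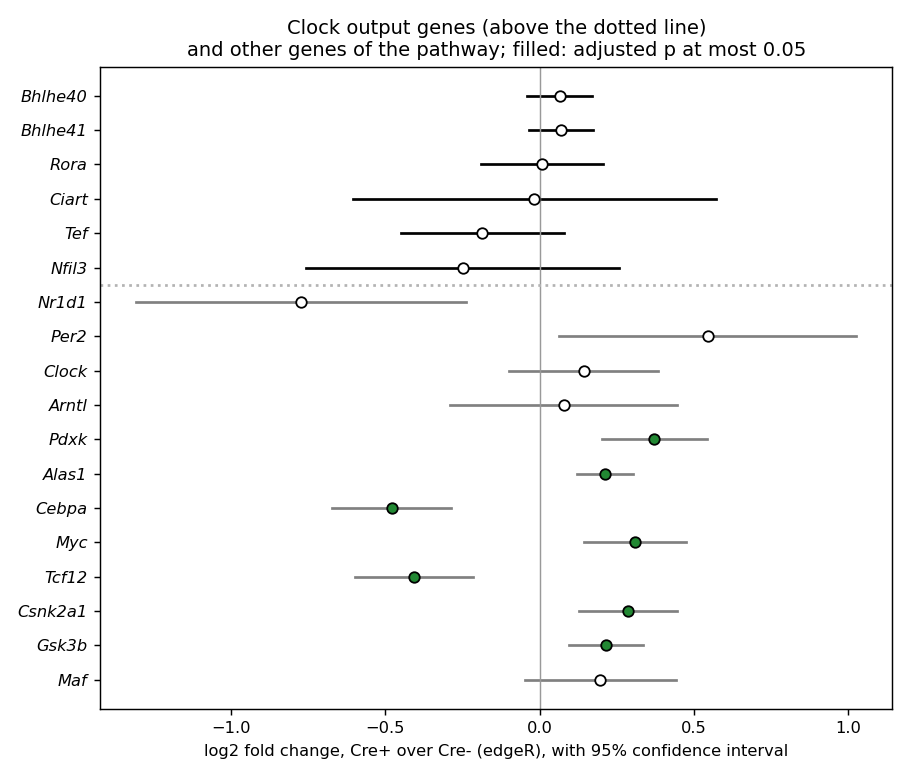
Log2 fold changes of Cre+ over Cre- from edgeR with 95% confidence intervals, for the 6 clock output genes tested (above the dotted line) and for genes of the surrounding lists. The intervals of all 6 include 0 and run from -0.76 to 0.57, and the 7 filled points mark the called genes, from Cebpa at -0.48 to Pdxk at 0.37.

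For each of the 6 genes tested, the 2 genes whose log2 CPM followed it most closely were taken from those averaging 5 CPM or more, as a description over the 6 libraries with no test. They were Ndrg3 and Pde4dip for Bhlhe40 (Pearson's r = 0.99 for both), Cstf2 and Ntmt1 for Bhlhe41 (0.99 and 0.98), Adam33 and Rpusd4 for Rora (0.98 for both), Prkch and Zfp768 for Tef (1.00 for both), Psen2 and Hspbap1 for Nfil3 (0.98 for both) and Ptpn6 and Asna1 for Ciart (0.99 and 0.98). Against 5.07% of all genes tested, edgeR's test called none of these 12 genes. They were picked for following members that were not called, so this count adds no evidence. No chance level was computed for r.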

How the data were processed

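RNA-seq counts of 6 microglia libraries were used. The counts, as deposited by the authors, are whole reads per Ensembl gene on GRCm38 from STAR and featureCounts, without normalization or a filter. The labels name STAR 2.7.9a and featureCounts 2.0.3, whereas the methods name older versions. The deposited CPM (counts divided by the library total) and FPKM (CPM per kilobase) of the authors were read only to check their unit. The kit does not mark strand.

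Symbols and biotypes came from GENCODE M21 (55227 of 55487 genes matched). After removal of 356 ribosomal RNA genes, those with over 1 CPM in 4 or more libraries entered the quasi-likelihood test of edgeR 4.0.16 (TMM, no covariates, Benjamini-Hochberg adjustment, threshold 0.05, R 4.3.3). The standard error of a fold change was taken from its F statistic (estimate over the root of F). Nothing in the labels names separate animals, so p-values measure the spread between these libraries. All pairs of libraries differed by more than counting noise (chi-square per degree of freedom at least 13.1). Genes below the filter were compared by exact permutation tests (scipy 1.17.1) of CPM on library totals. The pipeline was tested on simulated data.

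The genes named are the 8 members, Nr1d1, the called genes of each list or else the 2 with the smallest p-values, and the 2 genes most like each tested member. Rorb, Por, Flt1, Aldh1l1, Sphk2, Gm43909 and the clock genes compared in Cre- replicate 1 were named after their values were seen. Some listed genes are not reported here. Members and lists were chosen with earlier results of these data known. Alternatives were other scalings, DESeq2 1.42.0, limma 3.58.1, other filters, the replicate number as a block and leaving out each library.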

Additional observations from a re-analysis of the deposited data

How the results depend on the processing

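None of the 6 tested clock output genes was called in any of the 16 alternative fits. The number of genes called over the whole table was 579, and it moved to 886 with DESeq2, to 1528 without a filter on low counts, and to 321 to 435 when 1 library was left out (337 without Cre- replicate 3, 382 without Cre+ replicate 2, 321 without Cre+ replicate 3). It was 430 with the replicate number as a block. Same-numbered libraries did not deviate together (r = 0.00667, -0.0334 and -0.0556 across genes), so the numbers were not taken as pairs. Under this block Gsk3b and Myc were not called (adjusted p = 0.053 and 0.056 from edgeR's test). Of the list genes 7 were called, and 2 to 7 when 1 library was left out, namely 2 without Cre- replicate 1 and without Cre+ replicate 3, and 4 without Cre- replicate 2 and without Cre+ replicate 2. The sign of Rora and Ciart was not fixed. The log2 fold change of Rora ran from -0.0503 to 0.0903 when 1 library was left out, and was -0.0503 without Cre- replicate 2, -0.0169 without Cre- replicate 3 and -0.0444 without Cre+ replicate 3. That of Ciart was 0.0619 without a filter, 0.0268 with filterByExpr, 0.247 without Cre+ replicate 1 and -0.128 without Cre- replicate 3, and it fell below the filter in 4 of the fits without 1 library. Arntl ran from -0.0354 to 0.246 over these fits and was at -0.0145 without Cre- replicate 1 and at -0.0354 without Cre+ replicate 1. Without a filter the median log2 fold change of the same 11429 genes moved from 0.00 to 0.08, and Bhlhe40 and Bhlhe41 moved with it to 0.14 and 0.15. When 1 library was left out, the ratio of group means of Dbp ran from -1.47 to -0.10 on the log2 scale, and that of Hlf from -1.14 to -0.03. Depth limits Hlf, with at most 10 counts in a library, and to a lesser degree Dbp, Nfil3 and Ciart.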
